A study of Mus musculus with 8 samples.

Results

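The genes described here are 41 lysosomal genes of the mouse, which encode the soluble hydrolases of the lysosome, the proteins of its lumen that assist them, proteins of its membrane, and a pair of genes that act in lysosome biogenesis. The 41 were listed by symbol, and every probe set that the array table assigns to 1 of them was taken, whatever its signal. That gave 97 probe sets of the 45037 tested, and 41 of the 19761 genes that the table names. A probe set is a group of short probes that together report 1 transcript region, and 10 of the 41 genes had 1 probe set while 31 had several, up to 6. The RNA came from cerebral cortex of male SAMP8 mice, a senescence-accelerated strain, at 1 year and at 16 weeks, and of male SAMR1 mice, the senescence-resistant strain that served as the control, at the same ages. Each of the 4 groups had 2 arrays, 8 in all, of the MG-430 PM strip type. The strain is written SAMR8 in the genotype field of the 4 SAMP8 samples, and the groups were taken from the sample titles. Nothing in the labels says which array measured which mouse, so p-values reflect only how far the arrays of a group lay apart.

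Lysosomes are acidic organelles in which hydrolases break down proteins, glycans, sulfated glycosaminoglycans and lipids that arrive by endocytosis and autophagy. Most of the hydrolases receive a mannose 6-phosphate tag in the Golgi and are sorted to the lysosome by receptors for it. For many of these enzymes, loss of that one alone causes a storage disease, and many such diseases affect the brain. The transcription factor TFEB raises transcription of many of the genes through a short DNA motif built around CACGTG, known from mammalian promoters.

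TFEB acts on many of the genes through that motif, so it was looked for in their promoters. Shown are those of *Dpp7*, *Glb1*, *Galc* and *Neu1*, which the strain comparison turns on, and of 3 well-known members (*Mcoln1*, *Lamp1* and *Ctsd*). All 3 well-known members hold the motif, so the stretches shown hold it more often than the members as a whole. Each sequence holds the 100 bases before the transcription start, 5′ to 3′ on the strand of the gene, from RefSeq on build GRCm38.p6. Capitals mark CACGTG, which is its own reverse complement, so that a match on one strand is a match on both.
Dpp7, chr2:25356333-25356432, minus strand: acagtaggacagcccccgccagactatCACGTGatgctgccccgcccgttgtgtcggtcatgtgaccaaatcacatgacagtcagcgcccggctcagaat
Glb1, chr9:114400978-114401077, plus strand: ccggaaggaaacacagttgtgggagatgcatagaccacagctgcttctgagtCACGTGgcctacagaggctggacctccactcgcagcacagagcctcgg
Galc, chr12:98259460-98259559, minus strand: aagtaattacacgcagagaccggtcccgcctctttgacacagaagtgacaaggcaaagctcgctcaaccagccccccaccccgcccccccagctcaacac
Neu1, chr17:34931153-34931252, plus strand: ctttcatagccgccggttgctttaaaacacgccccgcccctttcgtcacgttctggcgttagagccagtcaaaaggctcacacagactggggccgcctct
Mcoln1, chr8:3500419-3500518, plus strand: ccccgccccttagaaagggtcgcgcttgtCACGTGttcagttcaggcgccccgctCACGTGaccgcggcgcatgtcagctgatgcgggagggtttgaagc
Lamp1, chr8:13159061-13159160, plus strand: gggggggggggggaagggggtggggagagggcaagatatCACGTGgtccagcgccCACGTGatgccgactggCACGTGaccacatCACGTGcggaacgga
Ctsd, chr7:142387828-142387927, minus strand: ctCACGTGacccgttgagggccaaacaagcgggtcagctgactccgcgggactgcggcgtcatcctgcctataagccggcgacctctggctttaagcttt
CACGTG began 73 bases before the start in *Dpp7* and 48 bases before it in *Glb1*. It occurred 2 times in the *Mcoln1* stretch and 4 times in that of *Lamp1*, and it was not among the 100 bases of *Galc* and *Neu1*. In the whole RefSeq window of 300 bases, 250 before and 50 after the start, 13 of the 37 members found in the promoter table (35.1%) held CACGTG, against 8.09% of 27025 genes. The longer form TCACGTGA, which contains CACGTG, was in 5 of the 37 (13.5%), against 1.12% of all genes. Among the members with a called probe set in any of the 4 comparisons below, 3 of 12 held CACGTG (*Dpp7*, *Glb1* and *Gaa*), and among those with none 10 of 25 did. A match is a description of the letters and not a bound site.

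The signals were log2 values summarised by RMA (robust multichip average), so a difference of 1 is a doubling of signal. Arrays of the same group correlated at 0.995 to 0.9981 over all probe sets and arrays of different groups at 0.99 to 0.9962, and array medians lay between 4.32 and 4.36. The 8 markers of cortical neurons were present in all groups, with a mean log2 signal of 7.00 to 7.01 in SAMP8 at 1 year, 7.13 to 7.36 in SAMP8 at 16 weeks, 7.10 to 7.18 in SAMR1 at 1 year and 7.14 to 7.21 in SAMR1 at 16 weeks. Both SAMR1 arrays at 16 weeks stood apart in markers of neighbouring regions: the mean signal of the 4 hypothalamus markers was 5.36 to 5.45 there, against 4.01 to 4.26 in the other 3 groups, and that of the 4 thalamus markers 6.72 to 7.34, against 6.31 to 6.59. The 5 striatum markers had a mean of 6.53 on 1 of these arrays and 7.84 on the other, against 7.59 to 7.89 in the other groups. The 8 choroid plexus markers read 4.41 on 1 and 5.27 on the other, in a range of 4.40 to 5.42 over the other groups. These arrays enter physiological aging and early events. The 4 olfactory bulb markers split the SAMP8 arrays, at 4.03 and 5.20 at 1 year and 3.92 and 5.06 at 16 weeks, against 3.81 to 4.09 in SAMR1. The part of these differences in the results was not tested. Since the tissue was measured in bulk, fewer cells of a type and less RNA per cell cannot be told apart.

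There were 4 comparisons. Accelerated aging set 1 year against 16 weeks within SAMP8, and physiological aging did so within SAMR1. The strains, SAMP8 over SAMR1, were compared at 16 weeks as early events and at 1 year as late events. A probe set was called when its adjusted p was under 0.05 (limma across all 45037 probe sets, Benjamini-Hochberg adjustment), and all adjusted p-values below come from that test. In physiological aging 10 of the 97 member probe sets were called, 4 upregulated and 6 downregulated, which is 10.3% against 5.48% of all probe sets (2.63% up, 2.85% down). In accelerated aging 7 were called, 4 upregulated and 3 downregulated (7.22%, against 5.07% of all, 2.26% up and 2.8% down). In early events 5 were called, 4 upregulated and 1 downregulated (5.15%, against 1.23% of all, 0.708% up and 0.522% down). In late events 3 were called, all upregulated (3.09%, against 0.688% of all, 0.362% up and 0.326% down). The members' share was above the background in all 4 comparisons, by the smallest margin in accelerated aging. The members were listed with earlier results of these data known, and several probe sets come from 1 gene. Over their brightest probe sets the median log2 signal was 6.85 to 7 by array, against array medians of 4.32 to 4.36. The part of these points in the shares was not tested. As a group the genes did not move 1 way: the median log2 fold change over the brightest probe set of each member was −0.04 in physiological aging (−0.03 over all genes) and −0.01 in accelerated aging (−0.03 over all genes). Between the strains it was 0.03 in early events (0 over all genes) and 0.02 in late events (0.01 over all genes).

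**Figure D1:**
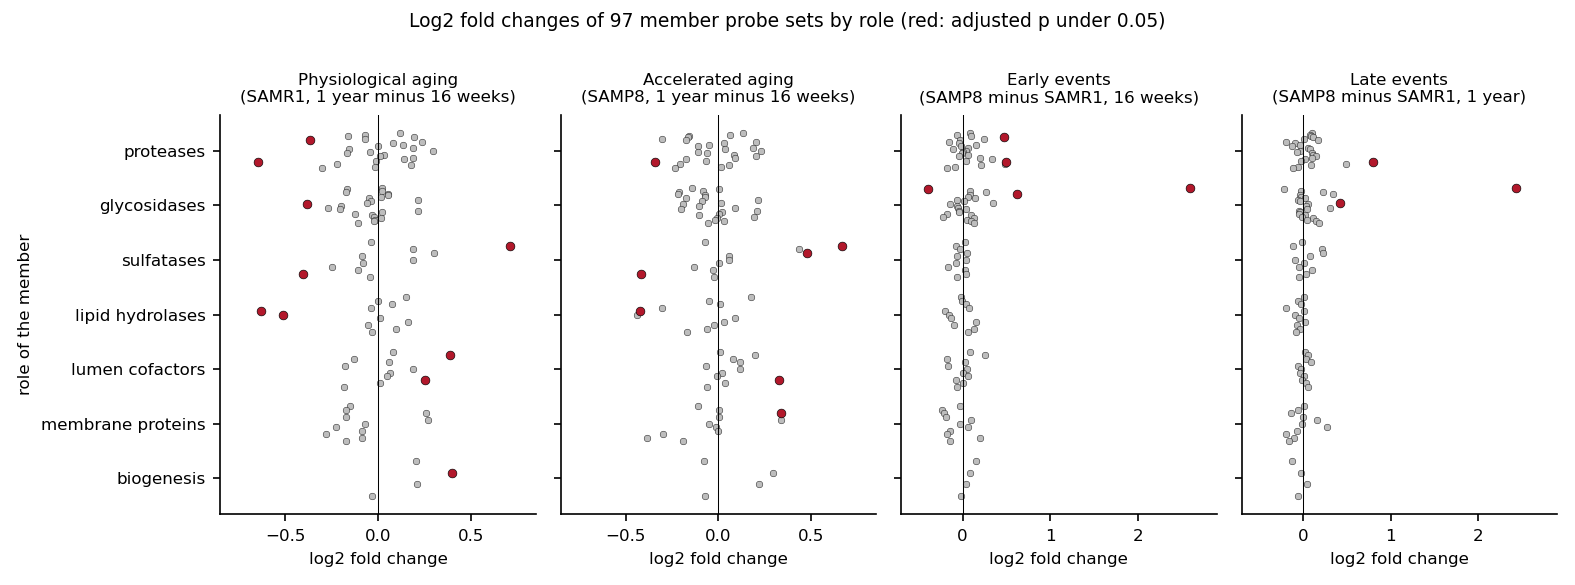
Log2 fold change (x axis) of the 97 member probe sets, by role (y axis), in the 4 comparisons (1 panel each, 1 point per probe set, red where the limma adjusted p was under 0.05). Most points lie near 0, the red points of early and late events lie among the proteases and glycosidases, and *Galc* stands alone at 2.60 and 2.43.

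Of the 97 probe sets, 17 of 13 genes were called in at least 1 of the 4 comparisons, and 11 of the 17 were not the brightest probe set of their gene. Counted by the brightest probe set, 4 members were called in physiological aging (5.17% of all genes), 3 in accelerated aging (5.09% of all), 2 in early events (1.07% of all) and 3 in late events (0.617% of all). By role, the strain differences lay in the proteases (10 genes, 25 probe sets) and the glycosidases (12 genes, 24 probe sets). Early events had 2 upregulated protease probe sets, and among the glycosidases 2 upregulated and 1 downregulated. Late events had 1 upregulated protease probe set and 2 upregulated glycosidase probe sets. No probe set of the sulfatases, lipid hydrolases, lumen cofactors, membrane proteins or biogenesis genes was called between the strains at either age by limma. At an unadjusted p under 0.05, early events held 1 probe set each of the lipid hydrolases, lumen cofactors and membrane proteins, and late events 1 each of the sulfatases and membrane proteins. The age changes were spread over all 7 roles in physiological aging except the membrane proteins, and over the proteases, sulfatases, lipid hydrolases, lumen cofactors and membrane proteins in accelerated aging.

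The largest strain difference among the members was that of *Galc*, which encodes galactosylceramidase, the enzyme that removes galactose from galactosylceramide and psychosine, lipids of myelin. Its brightest probe set, 1452907_PM_at, had log2 signals of 5.97 and 6.06 in SAMP8 against 3.73 and 3.44 in SAMR1 at 1 year, and of 6.21 and 6.11 in SAMP8 against 3.45 and 3.68 in SAMR1 at 16 weeks. All 4 SAMP8 arrays lay more than 2 log2 units above all 4 SAMR1 arrays. The SAMR1 values lay under the array medians, near the 31st percentile of all probe sets (31.3 at 1 year and 31.2 at 16 weeks), and no background level was measured for them, so the folds are ratios of RMA signals. The log2 fold change was 2.43 in late events (5.39-fold, SE 0.11, adjusted p = 4.45e-05) and 2.60 in early events (6.04-fold, SE 0.11, adjusted p = 2.88e-05), and both calls held with any 1 array left out. Its rank by p among the 45037 probe sets was 9 in late events and 8 in early events. The signal did not pass the test with age in either strain, with a log2 fold change of −0.15 in SAMP8 (95% interval −0.40 to 0.11) and 0.02 in SAMR1 (−0.23 to 0.27).

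The other *Galc* probe sets did not show this rise. For 1420547_PM_at the log2 signals were 3.11 and 3.09 in SAMP8 against 3.33 and 3.31 in SAMR1 at 1 year, and 3.13 and 3.06 in SAMP8 against 3.42 and 3.55 in SAMR1 at 16 weeks. These values ran the opposite way, SAMP8 below SAMR1 without overlap at both ages. The log2 fold change of −0.39 in early events was called (SE 0.07, adjusted p = 0.0353) and that of −0.22 in late events was not (95% interval −0.37 to −0.07, adjusted p = 0.366). The early call was lost without any 1 of 7 arrays and kept only without SAMR1 16 weeks replicate 1, with log2 fold changes of −0.43 and −0.36 without SAMP8 16 weeks replicate 1 and replicate 2 in turn, of −0.33 without SAMR1 16 weeks replicate 2, and of −0.39 without any 1 of the 1 year arrays. The remaining probe set, 1449900_PM_at, read 2.80 and 2.87 in SAMP8 against 2.89 and 2.83 in SAMR1 at 1 year, and 2.86 and 2.98 in SAMP8 against 2.89 and 2.79 in SAMR1 at 16 weeks. The strains overlapped on it at both ages, with intervals of −0.19 to 0.14 in late events and −0.08 to 0.24 in early events. Both of these probe sets lay below a log2 signal of 4 on every array, under the array medians.

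*Dpp7* encodes dipeptidyl peptidase 7, a serine protease that removes dipeptides ending in proline or alanine. Its brightest probe set, 1436479_PM_a_at, gave 6.30 and 6.33 in SAMP8 against 5.50 and 5.53 in SAMR1 at 1 year, and 6.70 and 6.61 in SAMP8 against 6.22 and 6.10 in SAMR1 at 16 weeks. SAMP8 was above SAMR1 at both ages, and within each strain both 1 year arrays were below both 16 weeks arrays. It was the member probe set called in all 4 comparisons: 0.80 in late events (1.74-fold, SE 0.07, adjusted p = 0.00138), 0.50 in early events (1.41-fold, adjusted p = 0.0137), −0.34 in accelerated aging (1.27-fold lower, adjusted p = 0.0327) and −0.65 in physiological aging (1.56-fold lower, adjusted p = 0.00681). The late call held with any 1 array left out, while the early call was lost without SAMP8 16 weeks replicate 1 (0.45) or replicate 2 (0.54). The physiological aging call was lost without SAMR1 1 year replicate 1 (−0.63) or replicate 2 (−0.66). The accelerated aging call was kept only without 1 of the SAMR1 16 weeks arrays, and without the other 6 arrays in turn the log2 fold change was −0.30 to −0.39.

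The second *Dpp7* probe set, 1435680_PM_a_at, gave 5.23 and 5.13 in SAMP8 against 4.59 and 4.78 in SAMR1 at 1 year, and 5.32 and 5.45 in SAMP8 against 4.82 and 4.99 in SAMR1 at 16 weeks. The direction was the same and the arrays of the strains did not overlap. Its log2 fold changes of 0.50 in late events (95% interval 0.28 to 0.71, adjusted p = 0.0699) and 0.48 in early events (0.27 to 0.69, adjusted p = 0.0531) stayed just above the threshold. Over both ages together the strain difference of 0.49 was called (adjusted p = 0.00733). With age this probe set fell by less than the brightest and was not called. Its changes were −0.205 in accelerated aging (adjusted p = 0.23) and −0.22 in physiological aging (adjusted p = 0.199). The remaining one, 1436480_PM_at, read 4.09 and 3.96 in SAMP8 against 3.87 and 4.00 in SAMR1 at 1 year, and 3.98 and 3.96 in SAMP8 against 3.76 and 3.75 in SAMR1 at 16 weeks. The strains overlapped at 1 year on this probe set, and neither age passed the test (0.09 with an interval of −0.08 to 0.26 in late events, 0.22 with an interval of 0.05 to 0.38 in early events). With age 1436480_PM_at ran opposite to the brightest, and it was not called. It changed by 0.18 in physiological aging (95% interval 0.01 to 0.35, adjusted p = 0.18) and by 0.055 in accelerated aging (−0.11 to 0.22).

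*Neu1* encodes sialidase 1, which removes sialic acid from glycoproteins and glycolipids and is held in a complex with cathepsin A and β-galactosidase. The called probe set, 1448481_PM_at, had 4.17 and 4.07 in SAMP8 against 3.81 and 3.74 in SAMR1 at 1 year, and 4.25 and 4.43 in SAMP8 against 3.74 and 3.70 in SAMR1 at 16 weeks. The strains did not overlap at either age. It was upregulated by 0.62 in early events (1.54-fold, SE 0.08, adjusted p = 0.00922), a call lost only without SAMP8 16 weeks replicate 2 (0.53). In late events the log2 fold change was 0.35 (95% interval 0.17 to 0.52, adjusted p = 0.153).

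The brightest *Neu1* probe set, 1416831_PM_at, had 5.67 and 5.70 in SAMP8 against 5.48 and 5.44 in SAMR1 at 1 year, and 5.99 and 5.80 in SAMP8 against 5.75 and 5.51 in SAMR1 at 16 weeks. SAMP8 was again the higher strain without overlap, but the log2 fold changes of 0.23 in late events (0.01 to 0.44, adjusted p = 0.626) and 0.27 in early events (0.05 to 0.48, adjusted p = 0.258) did not pass the test. On 1447942_PM_x_at the values were 3.53 and 3.58 in SAMP8 against 3.61 and 3.57 in SAMR1 at 1 year, and 3.56 and 3.69 in SAMP8 against 3.55 and 3.52 in SAMR1 at 16 weeks. This probe set, below the array medians, gave intervals of −0.19 to 0.12 in late events and −0.06 to 0.24 in early events.

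*Glb1*, the β-galactosidase that acts on the ganglioside GM1 and on keratan sulfate, had 1 probe set, 1416205_PM_at. Its log2 signals were 5.82 and 5.65 in SAMP8 against 5.32 and 5.30 in SAMR1 at 1 year, and 5.74 and 5.70 in SAMP8 against 5.38 and 5.36 in SAMR1 at 16 weeks. All SAMP8 arrays were above all SAMR1 arrays. The difference of 0.43 in late events was called (1.34-fold, SE 0.07, adjusted p = 0.0416) and that of 0.35 in early events was not (95% interval 0.19 to 0.51, adjusted p = 0.0644). The late call was kept only without 1 of the SAMR1 16 weeks arrays. It was lost without SAMP8 1 year replicate 1 (0.34) or replicate 2 (0.51), without SAMR1 1 year replicate 1 (0.44) or replicate 2 (0.42), and without either SAMP8 16 weeks array (0.43 each). *Ctsa*, whose protein joins the complex with *Neu1* and *Glb1*, had no called probe set.

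*Ctsb* encodes cathepsin B, a cysteine protease. Of its 5 probe sets 1 was called between the strains: 1448732_PM_at had 8.57 and 8.56 in SAMP8 against 8.37 and 8.53 in SAMR1 at 1 year, and 8.66 and 8.80 in SAMP8 against 8.19 and 8.32 in SAMR1 at 16 weeks. The strains did not overlap at either age, though at 1 year the nearest arrays were 8.56 in SAMP8 and 8.53 in SAMR1. The early difference was 0.48 (1.39-fold, SE 0.08, adjusted p = 0.0361) and the late one 0.12 (95% interval −0.07 to 0.30). The early call was kept only without SAMR1 16 weeks replicate 2; the log2 fold change was 0.55 and 0.41 without SAMP8 16 weeks replicate 1 and replicate 2 in turn, 0.41 without SAMR1 16 weeks replicate 1 and 0.48 without any 1 of the 1 year arrays. On the brightest *Ctsb* probe set, 1417490_PM_at, the strain difference was 0.10 at both ages and not called. The dimmer 1444987_PM_at ran the other way, with SAMP8 below SAMR1 without overlap at both ages. Its changes of −0.16 in early events and −0.20 in late events were not called. On 1417492_PM_at the difference was 0.245 in early and 0.01 in late events, and on 1417491_PM_at −0.025 and 0.165, none of them called.

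**Figure D2:**
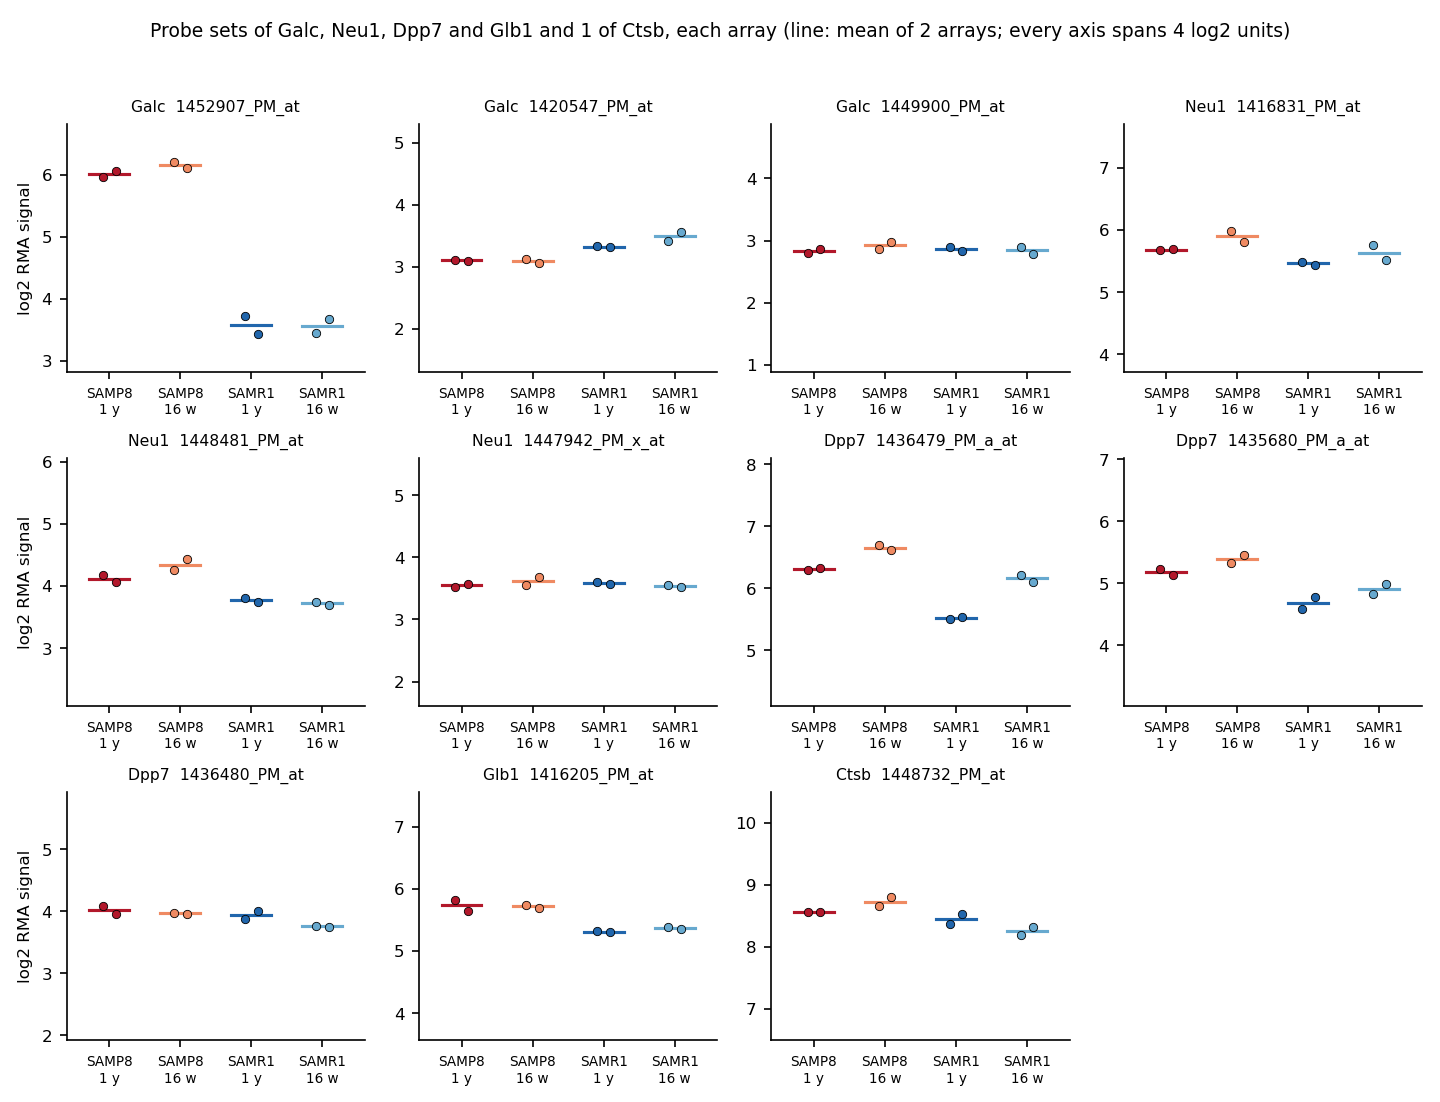
Log2 signal (y axis, each panel spans 4 log2 units) on the 8 arrays, by group (x axis, SAMP8 left of SAMR1), for the *Galc*, *Neu1* and *Dpp7* probe sets and those of *Glb1* and *Ctsb* called between the strains (1 point per array, line at the mean of 2 arrays). Only the 1452907_PM_at panel of *Galc* shows a wide gap, with SAMP8 at 5.97 to 6.21 and SAMR1 at 3.44 to 3.73.

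Early and late events share no array, so their log2 fold changes can be set side by side. Over the 97 member probe sets the sign was the same at both ages for 62 (63.9%, against 54.3% of all probe sets), with Pearson's r of 0.894 and Spearman's rho of 0.489 across probe sets, against 0.517 and 0.212 over all. *Galc* 1452907_PM_at, at 2.60 in early and 2.43 in late events, lay far from the other member probe sets, none of which exceeded 0.80. Pearson's r takes it in, and r without it was not computed. Probe sets are not independent replicates, and several come from 1 gene. The 5 probe sets called in early events and the 3 called in late events all had the same sign at the other age, and 2 were called at both, those of *Galc* and *Dpp7*. Fitted over both ages, 7 member probe sets were called between the strains, 6 upregulated and 1 downregulated (7.22%, against 1.89% of all probe sets, 1% up and 0.886% down). They comprised the called probe sets of *Galc*, *Neu1*, *Dpp7*, *Glb1* and *Ctsb* already described and the second one of *Dpp7*.

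**Figure D3:**
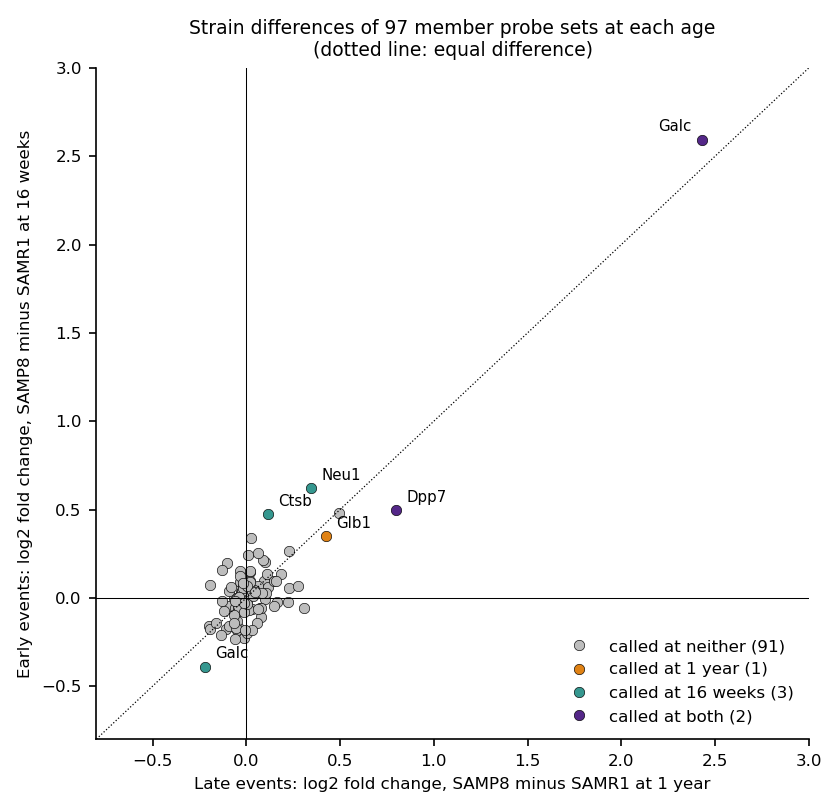
Log2 fold change of SAMP8 over SAMR1 in late events (x axis) and in early events (y axis), coloured by where it was called, 1 point per member probe set, with a dotted line where both are equal. *Galc* 1452907_PM_at lies at 2.43 and 2.60, *Dpp7* 1436479_PM_a_at at 0.80 and 0.50, and most others lie near 0.

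Genes next to the 5 strain-dependent members on the chromosome were looked up in the RefSeq gene order, 10 on each side. Next to *Galc*, 1 of the 8 neighbours on the array had a called probe set at each age, against 1.91% of all genes in early events and 1.03% in late events. That gene was *Ttc8*, 10 places away, whose brightest probe set differed by 0.89 in late events and 0.67 in early events. Near *Neu1*, 3 of 14 were called in early events and 1 in late events. The direct neighbour *1110038B12Rik* was lower in SAMP8 (log2 fold change −1.04 at each age). Near *Dpp7*, 1 of 15 was called in early events, *Entpd2* (−0.64), and none in late events by limma, where 3 had an unadjusted p under 0.05. None was called by limma near *Glb1* (12 on the array) or *Ctsb* (7 on the array). At an unadjusted p under 0.05 there were 3 near *Glb1* and 2 near *Ctsb* in early events, and 1 near *Glb1* and 0 near *Ctsb* in late events.

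Markers of glial cells were read beside these strain differences. *Galc* is known from myelinating oligodendrocytes, and the 12 oligodendrocyte markers had a mean log2 signal of 8.11 to 8.15 in SAMP8 against 8.17 to 8.26 in SAMR1 at 1 year, and of 8.12 to 8.26 in SAMP8 against 8.45 to 8.46 in SAMR1 at 16 weeks. Of these markers 3 of 12 were downregulated in early events (25%, against 0.516% of all genes by brightest probe set). They were *Aspa* (−0.69), *Mog* (−0.63) and *Cnp* (−0.38). No oligodendrocyte marker was called in late events by limma (3 at an unadjusted p under 0.05). The 16 microglia markers had a mean of 6.46 on both SAMP8 arrays against 6.42 to 6.43 in SAMR1 at 1 year, and of 6.34 to 6.39 in SAMP8 against 6.35 to 6.38 in SAMR1 at 16 weeks. At single ages only *Aif1* of the 16 was called between the strains, upregulated by 0.51 in late events (adjusted p = 0.027). That is 6.25% of the list, against 0.319% of all genes upregulated there. In the fit over both ages 2 microglia markers were higher and 1 was lower in SAMP8 (18.8% called, against 1.78% of all genes). There 4 of the 12 oligodendrocyte markers were lower in SAMP8 (33.3%, against 0.82% of all genes). None of the 8 astrocyte markers was called between the strains at either age by limma (2 in early events and 0 in late events at an unadjusted p under 0.05). The part of these markers in the strain differences was not tested.

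With age, the member with the largest change in both strains was *Ids*, the iduronate 2-sulfatase that takes sulfate from heparan and dermatan sulfate. Its probe set 1434751_PM_at gave 6.48 and 6.38 at 1 year against 5.83 and 5.70 at 16 weeks in SAMP8, and 6.56 and 6.54 at 1 year against 5.84 and 5.84 at 16 weeks in SAMR1. All 1 year arrays were above all 16 weeks arrays. It was upregulated by 0.67 in accelerated aging (1.59-fold, SE 0.07, adjusted p = 0.00916) and by 0.71 in physiological aging (1.64-fold, SE 0.07, adjusted p = 0.00563). A second *Ids* probe set, 1450166_PM_at, gave 4.62 and 4.50 at 1 year against 4.18 and 3.99 at 16 weeks in SAMP8, and 4.33 and 4.33 at 1 year against 4.02 and 4.04 at 16 weeks in SAMR1. It rose by 0.48 in accelerated aging (adjusted p = 0.0209), and its 0.30 in physiological aging was not called (95% interval 0.12 to 0.48, adjusted p = 0.0641). The brightest of the 6 *Ids* probe sets, 1455481_PM_at, did not share the rise: it read 11.08 and 11.03 at 1 year against 11.08 and 11.18 at 16 weeks in SAMP8, and 11.07 and 11.06 at 1 year against 11.09 and 11.12 at 16 weeks in SAMR1. Its intervals were −0.22 to 0.07 in accelerated aging and −0.19 to 0.11 in physiological aging.

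*Arsb*, arylsulfatase B, which takes sulfate from dermatan and chondroitin sulfate, moved the other way. Its brightest probe set, 1429189_PM_at, gave 7.92 and 8.01 at 1 year against 8.39 and 8.37 at 16 weeks in SAMP8, and 7.90 and 7.97 at 1 year against 8.34 and 8.34 at 16 weeks in SAMR1. The ages did not overlap in either strain and the strains differed little. The log2 fold change was −0.42 in accelerated aging (1.33-fold lower, SE 0.06, adjusted p = 0.0186) and −0.41 in physiological aging (1.32-fold lower, SE 0.06, adjusted p = 0.0154).

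*Lipa*, lysosomal acid lipase, which hydrolyses cholesteryl esters and triglycerides, was lower at 1 year. Its probe set 1450872_PM_s_at gave 5.62 and 5.65 at 1 year against 6.02 and 6.10 at 16 weeks in SAMP8, and 5.69 and 5.57 at 1 year against 6.36 and 6.16 at 16 weeks in SAMR1. It was downregulated in accelerated aging (−0.43, 1.34-fold lower, adjusted p = 0.0301) and in physiological aging (−0.63, 1.55-fold lower, adjusted p = 0.0104). The 1423140_PM_at probe set gave 4.25 and 4.11 at 1 year against 4.46 and 4.78 at 16 weeks in SAMP8, and 4.18 and 4.36 at 1 year against 4.81 and 4.75 at 16 weeks in SAMR1. Its ages did not overlap in either strain, and it was called in physiological aging (−0.51, adjusted p = 0.0388) but not in accelerated aging (−0.44, 95% interval −0.70 to −0.18, adjusted p = 0.0594). On the brightest probe set, 1423141_PM_at, neither change was called (−0.31 in accelerated aging, adjusted p = 0.126, and −0.04 in physiological aging, interval −0.28 to 0.20).

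*Npc2* encodes a lumen cofactor that binds cholesterol and hands it to NPC1. Its brightest probe set, 1448513_PM_a_at, gave 8.41 and 8.37 at 1 year against 8.05 and 8.08 at 16 weeks in SAMP8, and 8.40 and 8.40 at 1 year against 8.17 and 8.12 at 16 weeks in SAMR1. The ages did not overlap, and the log2 fold change was 0.33 in accelerated aging (1.25-fold, adjusted p = 0.0259) and 0.26 in physiological aging (1.19-fold, adjusted p = 0.047). Its other probe sets did not share the rise: 1416901_PM_at changed by 0.04 in accelerated aging and 0.01 in physiological aging, and the dimmer 1455768_PM_at by −0.06 in accelerated aging (adjusted p = 0.699) and −0.19 in physiological aging (adjusted p = 0.198), none of them called. *Psap* encodes prosaposin, the precursor of the saposins that present sphingolipids to their hydrolases. Its probe set 1421813_PM_a_at gave 9.53 and 9.51 at 1 year against 9.29 and 9.36 at 16 weeks in SAMP8, and 9.43 and 9.49 at 1 year against 8.96 and 9.18 at 16 weeks in SAMR1. It was upregulated in physiological aging (0.39, 1.31-fold, adjusted p = 0.0339), and its 0.20 in accelerated aging was not called (95% interval 0.01 to 0.38, adjusted p = 0.196). The brightest *Psap* probe set changed by 0.08 in physiological aging, with an interval of −0.08 to 0.24.

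*Lamp2* encodes a glycoprotein of the lysosomal membrane that takes part in autophagy. Its probe set 1416344_PM_at gave 7.81 and 7.80 at 1 year against 7.40 and 7.54 at 16 weeks in SAMP8, and 7.94 and 7.94 at 1 year against 7.76 and 7.60 at 16 weeks in SAMR1. The 1 year arrays were higher in both strains, and the change was called in accelerated aging (0.34, 1.26-fold, adjusted p = 0.0459) but not in physiological aging (0.26, 95% interval 0.08 to 0.44, adjusted p = 0.086). The brightest of its 4 probe sets, 1434503_PM_s_at, changed by 0.01 in accelerated aging (−0.23 to 0.24) and −0.17 in physiological aging (−0.41 to 0.07). *Gnptab* encodes subunits of the Golgi enzyme that starts the mannose 6-phosphate tag. Its probe set 1456620_PM_at gave 5.29 and 5.38 at 1 year against 5.07 and 5.01 at 16 weeks in SAMP8, and 5.30 and 5.41 at 1 year against 4.86 and 5.05 at 16 weeks in SAMR1. It rose in physiological aging (0.40, 1.32-fold, adjusted p = 0.0324), and the 0.30 of accelerated aging was not called (95% interval 0.11 to 0.48, adjusted p = 0.0759). The brightest *Gnptab* probe set, 1435335_PM_a_at, changed by 0.205 in physiological aging (adjusted p = 0.197) and −0.08 in accelerated aging. The dimmest, 1452461_PM_a_at, changed by 0.21 and 0.22, and none of these was called.

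*Gaa*, the acid α-glucosidase that degrades glycogen, was called lower in physiological aging on 1 of its 2 probe sets. Its brightest probe set, 1436849_PM_x_at, gave 8.22 and 8.13 at 1 year against 8.38 and 8.35 at 16 weeks in SAMP8, and 8.06 and 8.18 at 1 year against 8.40 and 8.61 at 16 weeks in SAMR1. The change was −0.39 in SAMR1 (1.31-fold lower, adjusted p = 0.0394), while that of −0.19 in SAMP8 was not called (interval −0.38 to 0.00). On the other *Gaa* probe set, 1419428_PM_a_at, with a mean log2 signal of 8.03, the ages overlapped in SAMR1. Its change there was −0.20 and not called (interval −0.50 to 0.10, adjusted p = 0.41). The *Ctsb* probe set 1417491_PM_at gave 6.01 and 6.14 at 1 year against 6.16 and 6.34 at 16 weeks in SAMP8, and 5.93 and 5.89 at 1 year against 6.31 and 6.24 at 16 weeks in SAMR1. It fell by 0.37 on the log2 scale in physiological aging (adjusted p = 0.0397) and was not called in accelerated aging (−0.18, 95% interval −0.36 to 0.01). The other *Ctsb* probe sets were not called with age and differed in direction: in physiological aging 1448732_PM_at changed by 0.20 (adjusted p = 0.202) and 1444987_PM_at by 0.24 (adjusted p = 0.172), while the brightest, 1417490_PM_at, changed by −0.16 (adjusted p = 0.198) and 1417492_PM_at by −0.07.

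**Figure D4:**
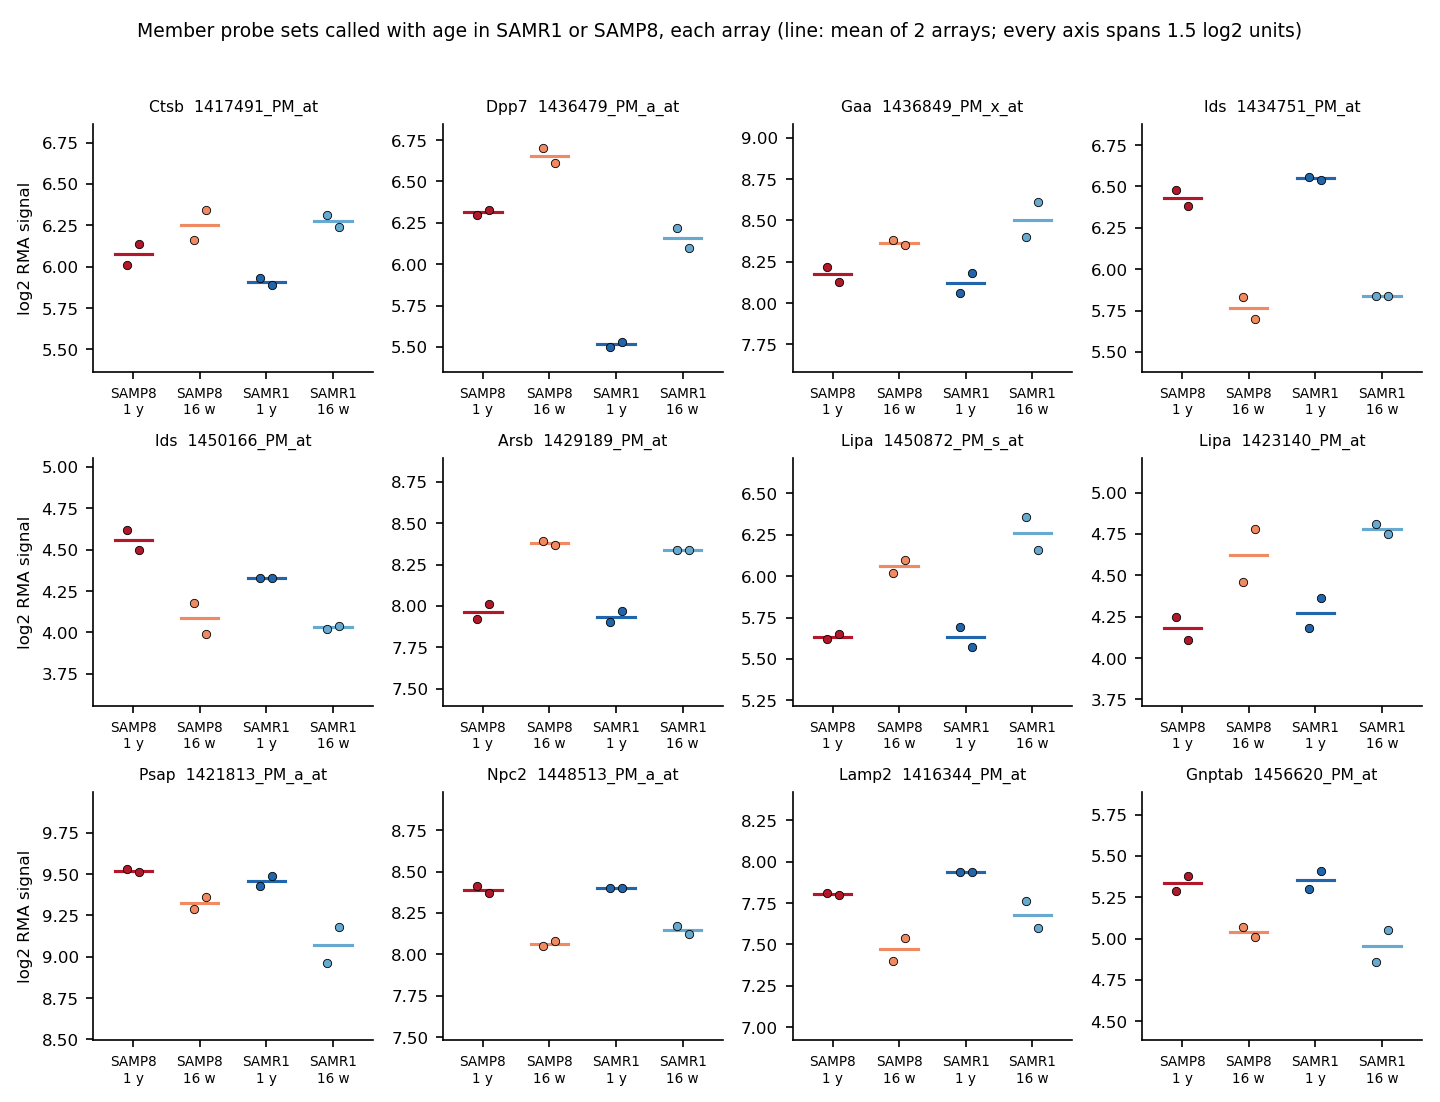
Log2 signal (y axis, each panel spans 1.5 log2 units) on the 8 arrays, by group (x axis, SAMP8 left of SAMR1 and 1 year left of 16 weeks), for member probe sets called with age (1 point per array, line at the mean of 2 arrays). *Ids* 1434751_PM_at is higher at 1 year in both strains (6.38 to 6.56 against 5.70 to 5.84), and *Arsb* is lower (7.90 to 8.01 against 8.34 to 8.39).

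The age calls rested on few arrays. Without SAMR1 1 year replicate 1 or replicate 2, none of the 10 physiological aging calls remained, while 22 and 25 member probe sets stood at an unadjusted p under 0.05, and the calls in the whole table dropped to 19 and 74 of 2466. Without SAMR1 16 weeks replicate 1, 6 were called, 5 of them among the 10, and without SAMP8 1 year replicate 1 or replicate 2, 4 of the 10 remained each time. In accelerated aging no member was called by limma without SAMP8 1 year replicate 1, SAMP8 1 year replicate 2 or SAMP8 16 weeks replicate 2, with 19, 20 and 22 member probe sets at an unadjusted p under 0.05. Without SAMP8 16 weeks replicate 1, 4 were called, 2 of them among the 7. Leaving out a SAMR1 array gave 3 calls for each at 1 year, all among the 7, and 11 for each at 16 weeks, with the 7 included. In early events the 5 calls became 3 without any 1 of the 4 arrays at 1 year, 2 without SAMP8 16 weeks replicate 1 and 1 without SAMP8 16 weeks replicate 2. Each called fold change kept its sign in these fits. Among the calls of physiological aging, that of *Npc2* was lost without any 1 array and that of *Gaa* was kept only without SAMR1 16 weeks replicate 1. Those of *Ctsb* 1417491_PM_at and *Lipa* 1423140_PM_at were kept only without 1 of the SAMP8 16 weeks arrays, and those of *Psap* and *Gnptab* were lost also without either SAMP8 1 year array or SAMR1 16 weeks replicate 1. In accelerated aging the calls of *Dpp7*, *Lipa*, *Npc2* and *Lamp2* were kept only without 1 of the SAMR1 16 weeks arrays.

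Physiological and accelerated aging share no array either. The sign of the log2 fold change was the same for 69 of the 97 member probe sets (71.1%, against 69.2% of all probe sets), with Pearson's r of 0.765 and Spearman's rho of 0.657 across probe sets, against 0.646 and 0.587 over all. All 10 probe sets called in physiological aging and all 7 called in accelerated aging had the same sign in the other strain, and 5 were called in both (*Dpp7*, *Ids*, *Arsb*, *Lipa* and *Npc2*). Arrays of the ages did not overlap for 60 member probe sets in physiological aging (61.9%, against 52.4% of all) and for 45 in accelerated aging (46.4%, against 52.4%). Arrays of the strains did not overlap for 42 in early events (43.3%, against 37.5% of all) and for 43 in late events (44.3%, against 38.6%).

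**Figure D5:**
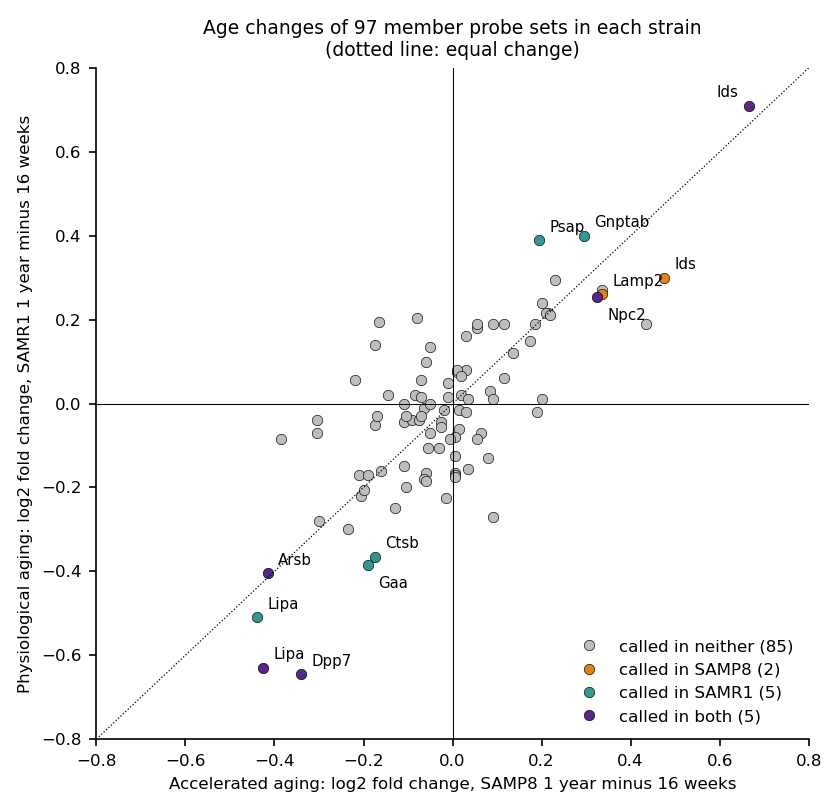
Log2 fold change of 1 year over 16 weeks in accelerated aging (x axis) and in physiological aging (y axis), coloured by where it was called, 1 point per member probe set, with a dotted line where both are equal. *Ids* 1434751_PM_at lies at 0.67 and 0.71 and *Dpp7* 1436479_PM_a_at at −0.34 and −0.65, and the points of the other called probe sets share their sign on both axes.

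Fitted over both strains, age changed 22 member probe sets, 14 upregulated and 8 downregulated (22.7%, against 17.3% of all probe sets, 8.17% up and 9.17% down). The count was 10 without SAMP8 1 year replicate 1, and it was 13 with the second SAMP8 array or either SAMR1 array of that age left out. Some of these members were called in neither strain alone. *Ctsd*, the aspartic protease cathepsin D, gave 8.98 and 8.99 at 1 year against 8.78 and 8.82 at 16 weeks in SAMP8, and 8.94 and 8.91 at 1 year against 8.69 and 8.78 at 16 weeks in SAMR1. It was upregulated by 0.19 over both strains (adjusted p = 0.0233), with every 1 year array above every 16 weeks array. *Mcoln1*, a calcium channel of the lysosomal membrane, gave 6.63 and 6.77 at 1 year against 6.92 and 7.08 at 16 weeks in SAMP8, and 6.99 and 6.80 at 1 year against 7.13 and 7.22 at 16 weeks in SAMR1 on its brightest probe set. It was downregulated by −0.29 (adjusted p = 0.02). *Asah1*, acid ceramidase (0.16, adjusted p = 0.0355), and *Idua*, α-L-iduronidase (0.21, adjusted p = 0.0183), rose. The *Idua* rise was on its brightest probe set, while the other, 1449230_PM_at, changed by 0.02 and was not called. Also called were a probe set each of *Ctsf*, a cysteine protease (0.26), *Gla*, α-galactosidase A (0.22), and *Tpp1*, a tripeptidyl peptidase (−0.27). None of them was the brightest of its gene, and that of *Gla* had a mean log2 signal of 3.50, under the array medians. On the brightest probe set the change was −0.06 for *Ctsf*, −0.11 for *Gla* and 0 for *Tpp1*, none of them called. In the same fit 4 of the 16 microglia markers rose with age (25%, against 5.38% of all genes by brightest probe set). Of the 12 oligodendrocyte markers 3 fell by brightest probe set (25%, against 11.9% of all genes). Over all 32 of their probe sets 6 rose (18.8%, against 8.17% of all probe sets) and 5 fell (against 9.17% of all). Of the 8 astrocyte markers 1 rose (12.5%), and of the 8 cortical neuron markers 2 fell (25%). The part of these markers in the members' age changes was not tested.

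Whether the age change itself differed between the strains was tested as an interaction, accelerated minus physiological aging. No member probe set was called by limma, against 0.00222% of all probe sets (1 probe set), and 5 members (5.15%) had an unadjusted p under 0.05, against 6.92% of all. These were *Dpp7* 1436479_PM_a_at (0.31, 95% interval 0.08 to 0.53, adjusted p = 0.558), *Ctsb* 1448732_PM_at (−0.36, −0.63 to −0.09, adjusted p = 0.585), *Gusb* 1448124_PM_at, the β-glucuronidase (0.36, 0.06 to 0.66, adjusted p = 0.649), *Neu1* 1448481_PM_at (−0.28, −0.53 to −0.02, adjusted p = 0.693) and *Gnptab* 1435335_PM_a_at (−0.29, −0.56 to −0.01, adjusted p = 0.712). For *Galc* 1452907_PM_at it was −0.17 (−0.52 to 0.19). A call in 1 strain and not in the other was therefore in no case shown to be a difference between the strains.

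The remaining 28 members had no called probe set in the 4 comparisons, and 21 had none in the fits over both ages or both strains either. The 21 were the proteases *Ctsa*, *Ctsc*, *Ctsh*, *Ctsl* and *Ctsz*, the glycosidases *Hexa*, *Gusb*, *Naglu*, *Man2b1*, *Manba* and *Fuca1*, the sulfatases *Sgsh* and *Arsa*, the lipid hydrolases *Smpd1* and *Ppt1*, the cofactors *Gm2a* and *Grn*, the membrane proteins *Lamp1*, *Scarb2* and *Npc1*, and *Tfeb*. *Tfeb*, the transcription factor of the family, gave 4.29 and 4.15 in SAMP8 against 4.24 and 4.32 in SAMR1 at 1 year, and 4.34 and 4.24 in SAMP8 against 4.28 and 4.34 in SAMR1 at 16 weeks. The groups overlapped, and its log2 fold changes were −0.06 in late events and −0.02 in early events. *Lamp1*, the abundant glycoprotein of the lysosomal membrane, gave 9.17 and 9.22 in SAMP8 against 9.15 and 9.23 in SAMR1 at 1 year, and 9.24 and 9.37 in SAMP8 against 9.33 and 9.35 in SAMR1 at 16 weeks. Within the 4 comparisons the lowest adjusted p among the 21 was that of *Scarb2*, the receptor that carries glucocerebrosidase to the lysosome. Its probe set 1460235_PM_at changed by −0.23 in physiological aging (adjusted p = 0.0846), while the brightest, 1454704_PM_at, changed by −0.07 (adjusted p = 0.553). In the age fit over both strains, *Grn* 1438629_PM_x_at, progranulin, was at 0.15 (adjusted p = 0.0576) and *Gusb* 1430332_PM_a_at at −0.20 (adjusted p = 0.0719).

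A further 96 lysosomal genes outside the 41 were listed, and 92 of them were measured. By brightest probe set, none was called between the strains at either age by limma (14 in early events and 4 in late events at an unadjusted p under 0.05). In accelerated aging 2 rose and 7 fell (9.78% called, against 5.09% of all genes), and in physiological aging 5 fell (5.43%, against 5.17% of all genes). Subunits of the proton pump that acidifies the lysosome accounted for 3 of the falls in accelerated aging and 2 in physiological aging, of 17 measured (17.6% in accelerated aging and 11.8% in physiological aging, against those shares of all genes). *Atp6v0b* 1437013_PM_x_at, a membrane subunit of the pump, gave 8.80 and 8.83 at 1 year against 9.40 and 9.38 at 16 weeks in SAMP8, and 8.80 and 8.78 at 1 year against 9.48 and 9.45 at 16 weeks in SAMR1. It was downregulated in both strains (−0.58 in accelerated aging, −0.68 in physiological aging). *Ctbs*, chitobiase, was among the rises in accelerated aging (0.54). Counted over all 183 probe sets of these genes, 4 rose in early events (2.19%, against 0.708% of all probe sets) and 2 in late events (1.09%, against 0.362%). *Vps41*, a subunit of the HOPS complex that tethers late endosomes to lysosomes, held a strain difference of the size of *Galc* on 1 probe set, which was not its brightest. Its probe set 1437901_PM_a_at gave 7.91 and 7.90 in SAMP8 against 5.52 and 5.59 in SAMR1 at 1 year, and 7.80 and 7.81 in SAMP8 against 5.33 and 4.95 in SAMR1 at 16 weeks. It was upregulated by 2.35 in late events and 2.67 in early events. The 1433665_PM_at probe set of *Vps41* differed by 0.65 in late events and 0.56 in early events. The brightest *Vps41* probe set, 1433666_PM_s_at, was not called between the strains at either age.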

How the data were processed

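RNA of cerebral cortex was measured on 8 arrays, and the authors deposited log2 signals, made by RMA in Expression Console, with 1 value per probe set and array. The sample labels name the WT PLUS labelling kit, the series text 3′ IVT PLUS and the methods 3′ IVT Express. RMA, the Transcriptome Analysis Console and limma are the tools that the submitters' processing notes list, without versions. The 4 tables of the authors' own comparisons (group means, folds, p-values and FDR) were not used. The deposited series matrix held the same log2 values, with 0 differing of 360296.

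Of 45077 probe sets, 40 controls were left out. limma 3.58.1 in R 4.3.3 fitted 4 group means to all 8 arrays (4 residual and 4.52 prior degrees of freedom), with Benjamini-Hochberg adjustment over 45037 probe sets and no filter on dim ones. Promoters were searched with Python 3.11.15 and pandas 2.3.3. The fit was checked on simulated data. Precision is limited by the number of arrays. Groups followed the sample titles.

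Given on all 8 arrays were each probe set of *Galc*, *Neu1* and *Dpp7*, each other member called in a comparison, and a few uncalled probe sets and members chosen after their values were seen, and from the other lysosomal genes at most 4 called genes a list, with the lower-ranked *Vps41* probe sets also chosen after their values were seen. The brightest probe set has the highest mean over all arrays. The members and lists were chosen with earlier results of these data known. Alternatives were the 4 arrays of a comparison, another variance model, a replicate block, array weights, leaving out each array, 2 other scalings, the series matrix, a dim filter (mean log2 signal of at least 5) and the one-way ANOVA that the series text names. Promoters were found for 37 of 41 members. Protein and probe sequences were not used here. The result of a single gene among the other lysosomal genes is not reported here beyond its part in the counts.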

Additional observations from a re-analysis of the deposited data

How the results depend on the processing

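Of the 25 calls in the 4 comparisons, quantile normalization and the series matrix kept 25, the trended robust variance 24, array weights and median centring 23 each, and the dim filter all 19 that it still tested. No call reversed. Scaling moved the median of all probe sets by at most 0.025. With only the 4 arrays of a comparison 7 calls were kept: 0 were called in physiological aging (29 at an unadjusted p under 0.05) and 1 in early events. The one-way ANOVA that the series text names, after Benjamini-Hochberg adjustment, called 0 in each comparison, and 0 in the whole table. Unadjusted, it put 16 member probe sets under 0.05 in physiological aging, 17 in accelerated aging and 11 each in early and late events. With a fold above 1.1 required as well, as in the methods, it gave 16 and 15 in physiological and accelerated aging, against 33 and 26 by limma. Array weights gave 3 calls in early events and 5 in late events. The dim filter gave 3 in early events and 4 for the strain effect over both ages. The cause was not tested.

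Leaving out each array gave 0 to 9 calls in SAMR1 with age, 0 to 11 in SAMP8 with age, 1 to 7 between the strains at 16 weeks, 2 to 4 at 1 year, 5 to 9 for strain over both ages and 10 to 22 for age over both strains. Age over both strains fell to 10 without SAMP8 1 year replicate 1 and to 13 without SAMP8 1 year replicate 2, SAMR1 1 year replicate 1 or SAMR1 1 year replicate 2. The sign turned for *Galc* 1449900_PM_at in late events, an uncalled value, to 0.01 without SAMP8 1 year replicate 1 and 0.005 without SAMR1 1 year replicate 1, in a range of −0.06 to 0.01.

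With the replicate number as a block, 22 of the 25 calls were kept. Lost were *Npc2* 1448513_PM_a_at in SAMR1 with age (adjusted p = 0.059), *Lamp2* 1416344_PM_at in SAMP8 with age (adjusted p = 0.0557) and *Galc* 1420547_PM_at at 16 weeks (adjusted p = 0.053), the only downregulated strain call at that age, and *Dpp7* 1435680_PM_a_at at 16 weeks was gained (adjusted p = 0.0443). In all, 9 were called in SAMR1 with age, 7 in SAMP8 with age, 5 between the strains at 16 weeks, 3 at 1 year and 24 for age over both strains. Deviations of same-numbered arrays correlated at −0.0863 to 0.196 between groups. With 2 arrays a group this cannot show whether the numbers pair the samples. With 2 arrays a group, an uncalled change is not shown to be absent. A mean log2 signal of at least 5 was reached by 61 of the 97 member probe sets.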
